A study of Mus musculus with 10 samples.

Results

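Claudins and their tight junction partners were followed in the ileum of adult mice in which the transcription factors Sox2, Oct4 or both were switched on by doxycycline (DOX). The 10 genes were Cldn2, Cldn3, Cldn4, Cldn7, Cldn8, Cldn15, Cldn18, Cldn23, Ocln and Tjp1, taken by gene name from the array annotation, out of 27554 named genes on the arrays. They were measured by 12 probes, 1 probe for each claudin and a pair each for Ocln and Tjp1. RNA of whole ileum pieces was hybridised to 10 Agilent 1-colour arrays in 5 groups of 2. The question was what Sox2, alone or with Oct4, does to gene expression in adult intestine.

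All mice were C57BL/6 and 6 to 8 weeks old. The Sox2 +DOX group held TetON-Sox2 mice given 2 mg/ml DOX in drinking water with 1% sucrose for 2 days. Sox2 -DOX mice had the same genotype and were left untreated, so this comparison holds DOX, sucrose and the transgene's induction together. Sox2xOct4 +DOX mice carried TetON-Sox2 and TetON-Oct4, Oct4 +DOX mice carried TetON-Oct4, and rtTA +DOX mice were rtTA controls without the TetOP-Sox2 transgene. These 3 groups had the same DOX water for 2 days. The promoter that drives rtTA, and the cells in which it is active, are not given in the sources used here. The labels do not state that the 2 replicates of a group are separate animals. The p-values then reflect no more than the spread between these samples, which may be technical.

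Tight junctions seal the space between epithelial cells near their luminal side. Claudins are the membrane proteins that form their strands: some, such as claudin-2 and claudin-15, open pores for small cations and water, and others tighten the barrier. Occludin sits in the same strands, and scaffold proteins such as ZO-1, the product of Tjp1, tie them to actin. The small intestine is comparatively leaky, and absorption of glucose and other nutrients uses the sodium that claudin pores return to the lumen.

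Levels below are log2 of the processed signal over the array's 75th percentile, so 0 is that percentile. Levels of different probes are not set against each other. A gene was tested where some group had its probe well above background on each of its 2 arrays, which 9 of the 10 genes and 19049 genes in all passed. The Sox2 groups shared slide 1, Sox2xOct4 +DOX and rtTA +DOX shared slide 2, and Oct4 +DOX was alone on slide 3. Between slides, group and slide cannot be told apart.

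The probes that carry the main results are shown first, because their sequence is all that the array reads of a gene. Each is given 5′ to 3′, the first 30 bases only, except the probe of Cldn7, which is whole.
Cldn4, A_51_P356467: accctactaatgaatttctgtagagtggat
Cldn2, A_52_P251450: agtgtggaacatctgtgaccaaggtgttgt
Cldn15, A_51_P306710: actacacacatgcacacattctcaacaaaa
Cldn7, A_51_P165185: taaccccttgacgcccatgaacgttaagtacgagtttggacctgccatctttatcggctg

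On mouse build mm8, as the array files of the rtTA mice give it, the Cldn4 probe lies at chr5:135230104-135230163 on the minus strand and the Cldn3 probe 41.8 kb away at chr5:135271936-135271995. The Cldn15 probe lies on the same chromosome at chr5:137260222-137260281, the Cldn2 probe at chrX:135157069-135157128, and the Cldn7 probe at chr11:69783473-69783782. The 60 bases of the Cldn7 probe cover 310 bases of genome, so it spans an intron. The 60 bases of the Cldn18 probe are placed on only 40 bases. The other probes lie at chr16:88449749-88449808 (Cldn8), chr9:99500151-99500190 (Cldn18) and chr8:37293614-37293673 (Cldn23). The probe that stands for Ocln lies at chr13:101598416-101598475 and that for Tjp1 at chr7:65175767-65175826. The annotation in the files does not say whether a probe lies in a UTR.

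**Figure D1:**
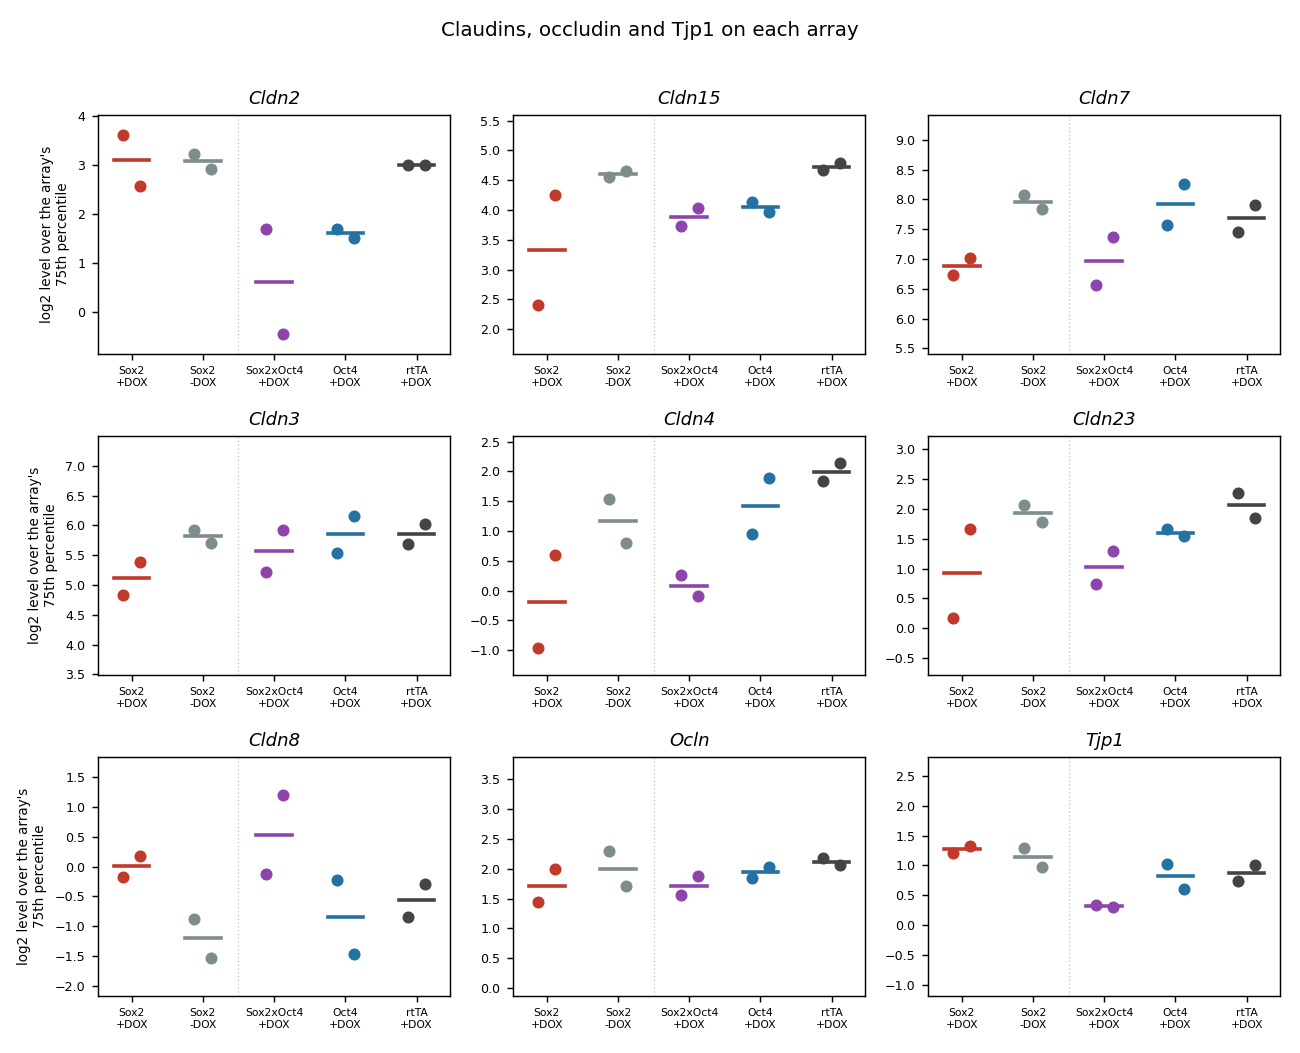
Level of 9 genes on each of the 10 arrays (vertical axis: log2 of the signal over the array's 75th percentile; horizontal axis: group). Points are arrays, short lines are means of 2 arrays, filled points are well above background, and the dotted line parts slide 1 from the other slides. Cldn2 stands at 2.57 or above in the Sox2 groups and the rtTA +DOX group, and at 1.70 or below in the Sox2xOct4 +DOX and Oct4 +DOX groups.

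Within the Sox2 groups, no member passed the test in Sox2 +DOX against Sox2 -DOX ileum, where 7.82% of all genes did (limma, Benjamini-Hochberg adjusted over 19049 genes). At an unadjusted p under 0.05, 3 of 9 members differed, Cldn7, Cldn4 and Cldn15, near the share of 27.1% over all genes. Of the 9 members, 6 had a lower mean in Sox2 +DOX, with a median log2 difference of -0.71 against -0.10 over all genes. The 2 groups did not overlap for 6 of 9 members, against 66.4% of all genes tested.

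Among the pore-forming claudins, Cldn15, whose product is the main cation pore of small-intestinal villi, had levels of 2.40 and 4.25 in Sox2 +DOX ileum, against 4.56 and 4.66 in Sox2 -DOX ileum. Both Sox2 +DOX arrays were lower than both Sox2 -DOX arrays, but they lay far apart from each other. The log2 difference was -1.29 ± 0.52 (SE), a 2.44-fold lower mean, with a limma adjusted p of 0.16. The value rested on replicate 1: it was -0.36 without Sox2 +DOX replicate 1 (limma adjusted p 0.69), and -2.21 without replicate 2, which passed the test (limma adjusted p 0.011).

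Cldn2, which encodes a crypt cation and water pore, had levels of 3.61 and 2.57 in Sox2 +DOX ileum, against 3.23 and 2.92 in Sox2 -DOX ileum. The groups overlapped, and the log2 difference of 0.02 had a 95% confidence interval of -1.44 to 1.48.

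Among the claudins that tighten the barrier, Cldn7 had the smallest spread relative to its difference. It had levels of 6.74 and 7.01 in Sox2 +DOX ileum, against 8.07 and 7.85 in Sox2 -DOX ileum. The groups did not overlap, and the log2 difference was -1.08 ± 0.38 (SE; 2.12-fold lower, limma adjusted p 0.12). Claudin-7 lies along the sides of intestinal epithelial cells as well as in the junction, and mice without it develop intestinal inflammation. With normexp background correction and quantile normalization the difference was -0.95 and passed the test (limma adjusted p 0.037).

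Cldn4, which encodes a barrier claudin of the upper villus and a receptor of Clostridium enterotoxin, had levels of -0.97 and 0.60 in Sox2 +DOX ileum, against 1.54 and 0.80 in Sox2 -DOX ileum. Both Sox2 +DOX arrays were lower, replicate 2 by a narrow gap. The log2 difference was -1.36 ± 0.55 (SE; 2.57-fold lower, limma adjusted p 0.16). It was -0.58 without Sox2 +DOX replicate 1 (limma adjusted p 0.68) and -2.14 without replicate 2 (limma adjusted p 0.046).

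Cldn3, the neighbour of Cldn4 on chromosome 5 and also a barrier claudin, had levels of 4.83 and 5.39 in Sox2 +DOX ileum, against 5.92 and 5.71 in Sox2 -DOX ileum. Its log2 difference of -0.71 ± 0.37 (SE) did not pass the test (limma adjusted p 0.26). Cldn23, which encodes a claudin of differentiated surface cells, had levels of 0.17 and 1.67 in Sox2 +DOX ileum, against 2.06 and 1.79 in Sox2 -DOX ileum. As for Cldn15, the lower array was Sox2 +DOX replicate 1, and the log2 difference was -1.01 ± 0.48 (SE; limma adjusted p 0.21). The Cldn23 difference was -0.26 without that array (limma adjusted p 0.83) and -1.76 without replicate 2 (limma adjusted p 0.038).

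Cldn8 had the opposite sign. Claudin-8 is a sodium barrier best known from the colon and the distal nephron. Its level was -0.18 and 0.18 in Sox2 +DOX ileum, against -0.88 and -1.53 in Sox2 -DOX ileum. The groups did not overlap, and the log2 difference was 1.21 ± 0.56 (SE; 2.31-fold higher, limma adjusted p 0.20).

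Ocln and Tjp1 had overlapping groups. Ocln had levels of 1.44 and 2.00 in Sox2 +DOX ileum, against 2.31 and 1.70 in Sox2 -DOX ileum, a log2 difference of -0.29 with a 95% confidence interval of -1.03 to 0.46. Tjp1 had levels of 1.20 and 1.33 in Sox2 +DOX ileum, against 1.30 and 0.98 in Sox2 -DOX ileum, a log2 difference of 0.13 with a 95% confidence interval of -0.52 to 0.77.

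Both genes have a second, dim probe. The second Ocln probe, whose 60 bases cover 1194 bases of genome at chr13:101640151-101641344 (mm8), ranged from -4.45 to -2.58 over the 10 arrays. The second Tjp1 probe, at chr7:65192218-65192277 (mm8), ranged from -5.56 to -3.41. In Sox2 +DOX against Sox2 -DOX their log2 differences were 0.08 ± 0.62 for Ocln and -0.02 ± 0.60 for Tjp1 (SE). Signs differed between the probes of each gene, though these values lay well within their SE of 0, and no probe passed the test. In Sox2xOct4 +DOX against rtTA +DOX the second probes differed by -0.89 for Ocln and -0.67 for Tjp1. The first probes had the same sign there, at -0.40 and -0.55, and none passed the test.

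Cldn18, the claudin of stomach and lung, did not reach a signal well above background on a single array and was not tested. Its log2 levels lay between -9.05 and -6.57.

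**Figure D2:**
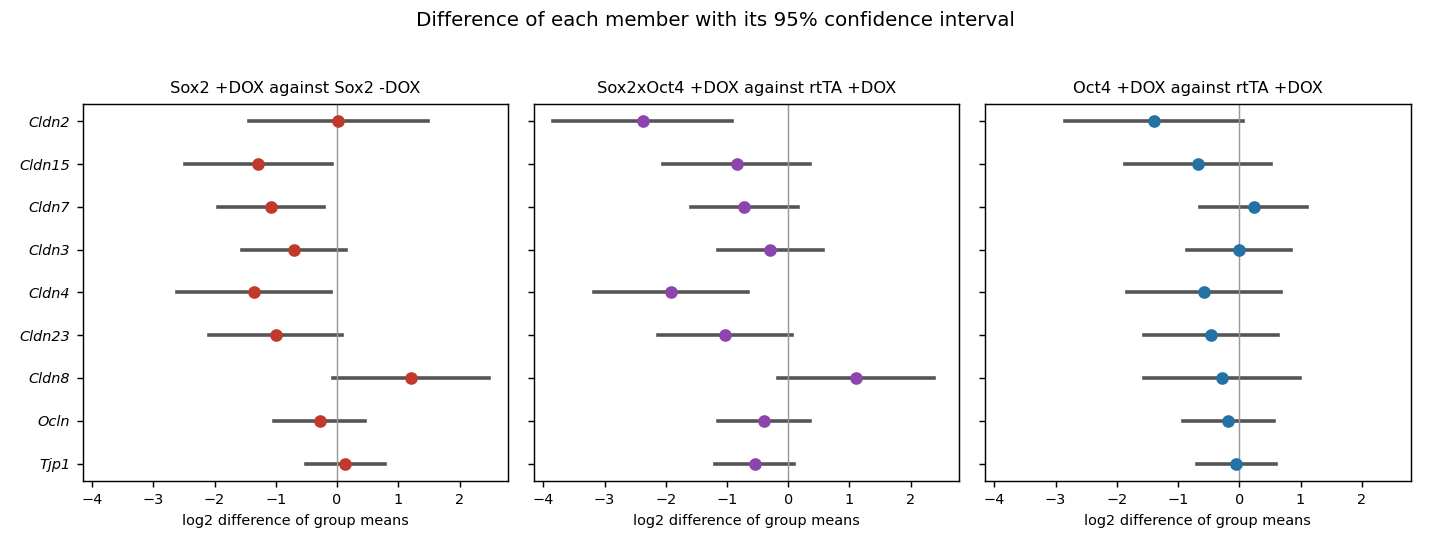
Log2 difference of group means for 9 genes (points) with 95% confidence intervals (lines) in 3 comparisons (panels); horizontal axis in log2 units, vertical axis the gene. Cldn4 lies left of 0 in all 3 panels, at -1.36, -1.91 and -0.58, and Cldn8 lies right of 0 in the panels with Sox2, at 1.21 and 1.1.

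With both transgenes, Cldn2 and Cldn4 had the largest differences. No member passed the test in Sox2xOct4 +DOX against rtTA +DOX ileum, where 6.34% of all genes did (limma). At an unadjusted p under 0.05, 2 of 9 members differed, Cldn2 and Cldn4, against 23.9% of all genes. The groups did not overlap for 8 of 9 members, against 52.7% of all genes tested. Of the 9 members, 8 had a lower mean in Sox2xOct4 +DOX, with a median log2 difference of -0.72 against 0.07 over all genes.

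The crypt pore gene Cldn2 had levels of 1.70 and -0.44 in Sox2xOct4 +DOX ileum, against 3.0 and 3.0 in rtTA +DOX ileum. Both Sox2xOct4 +DOX arrays were lower, and they differed from each other by more than 2 log2 units. The log2 difference was -2.37 ± 0.64 (SE; 5.18-fold lower, limma adjusted p 0.066). Without Sox2xOct4 +DOX replicate 1 it was -3.44, and without replicate 2 it was -1.31. The Sox2xOct4 +DOX arrays also differed in summed marker levels, which are not on the log scale. From replicate 1 to replicate 2, the smooth muscle sum went from 36.9 to 320.9. The adipocyte sum went from 1.04 to 31.75 and the Paneth cell sum from 46.2 to 199.1. Crypt base and cycling cell markers went the other way, from 104.4 to 40.9. In rtTA +DOX ileum the smooth muscle sums were 107.5 and 228.9. The part of tissue make-up in the Cldn2 difference was not tested.

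Cldn4 had levels of 0.25 and -0.09 in Sox2xOct4 +DOX ileum, against 1.84 and 2.15 in rtTA +DOX ileum. Replicates lay close together in both groups, and the log2 difference was -1.91 ± 0.55 (SE; 3.76-fold lower, limma adjusted p 0.079). Over 18 alternatives its value stayed between -2.08 and -1.70, and the limma adjusted p was under 0.05 in 2 of them.

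For Cldn7 the levels were 6.57 and 7.37 in Sox2xOct4 +DOX ileum, against 7.46 and 7.91 in rtTA +DOX ileum, a log2 difference of -0.72 ± 0.38 (SE; limma adjusted p 0.30). With normexp background correction and quantile normalization it was -0.94 and passed the test (limma adjusted p 0.041), and without Sox2xOct4 +DOX replicate 1 it was -0.31 (limma adjusted p 0.70). The villus pore gene Cldn15 had levels of 3.72 and 4.04 in Sox2xOct4 +DOX ileum, against 4.67 and 4.78 in rtTA +DOX ileum (log2 difference -0.84 ± 0.52 SE, limma adjusted p 0.37). Cldn23 had levels of 0.74 and 1.30 in Sox2xOct4 +DOX ileum, against 2.27 and 1.85 in rtTA +DOX ileum (log2 difference -1.04 ± 0.48 SE, limma adjusted p 0.23). None of these 3 genes had overlapping groups.

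Tjp1 had levels of 0.34 and 0.30 in Sox2xOct4 +DOX ileum, against 0.74 and 1.00 in rtTA +DOX ileum, and the log2 difference of -0.55 ± 0.28 (SE) did not pass the test (limma adjusted p 0.28). Ocln was 1.56 and 1.88 in Sox2xOct4 +DOX ileum, against 2.18 and 2.06 in rtTA +DOX ileum (log2 difference -0.40 ± 0.33 SE, limma adjusted p 0.50). Cldn3 overlapped, at 5.22 and 5.92 in Sox2xOct4 +DOX ileum, against 5.70 and 6.02 in rtTA +DOX ileum. Cldn8 was the only member with a higher mean, at -0.13 and 1.20 in Sox2xOct4 +DOX ileum, against -0.84 and -0.29 in rtTA +DOX ileum (log2 difference 1.1 ± 0.56 SE, limma adjusted p 0.27). Without 1 array that difference lay between 0.43 and 1.77, lowest without Sox2xOct4 +DOX replicate 2.

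The response in the Sox2 pair of groups and that in the Sox2xOct4 and rtTA pair were compared, as the difference of the 2 within-slide differences. Only the Sox2 pair differs in DOX and sucrose, and only the other pair differs in genotype. The comparison therefore does not set Sox2 alone against both factors by themselves. No member passed this test, in which 0.168% of all genes did (limma), and at an unadjusted p under 0.05 only Cldn2 differed, against 9.61% of all genes. Its response was higher by 2.39 ± 0.90 log2 units (SE) in the Sox2 pair of groups than in the Sox2xOct4 and rtTA pair (limma adjusted p 0.45). Leaving out 1 array gave 1.32 to 3.46, the ends without Sox2xOct4 +DOX replicate 2 and replicate 1. For Cldn4 the difference of responses was 0.55, with a 95% confidence interval of -1.23 to 2.34. It was -0.44 for Cldn15, -0.37 for Cldn7 and 0.68 for Tjp1, and lay between 0.03 and 0.11 for Cldn8, Cldn23 and Ocln. For Cldn3 it was -0.415.

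Oct4 alone was set against rtTA +DOX across slides. No member passed the test in Oct4 +DOX against rtTA +DOX, where 1.01% of all genes did (limma), and no member had an unadjusted p under 0.05, against 13.3% of all genes. Cldn2 had levels of 1.70 and 1.51 in Oct4 +DOX ileum, against 3.0 and 3.0 in rtTA +DOX ileum. The groups did not overlap, and the log2 difference was -1.39 ± 0.64 (SE; 2.63-fold lower, limma adjusted p 0.40). Cldn15 came next, at 4.13 and 3.97 in Oct4 +DOX ileum, against 4.67 and 4.78 in rtTA +DOX ileum (log2 difference -0.68 ± 0.52 SE).

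The groups overlapped for Cldn4 and Cldn7. Cldn4 had levels of 0.95 and 1.88 in Oct4 +DOX ileum, against 1.84 and 2.15 in rtTA +DOX ileum (log2 difference -0.58 ± 0.55 SE). Cldn7 had levels of 7.58 and 8.26 in Oct4 +DOX ileum, against 7.46 and 7.91 in rtTA +DOX ileum, and its log2 difference was 0.23, or -0.29 with normexp correction and quantile normalization. Cldn3, Cldn8 and Tjp1 overlapped, with log2 differences of -0.008, -0.28 and -0.05, and Cldn23 and Ocln had log2 differences of -0.46 and -0.18.

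In Sox2 +DOX against rtTA +DOX ileum, also across slides, Cldn4 was the 1 member of 9 that passed the test, where 8.38% of all genes did (limma). Its levels of -0.97 and 0.60 in Sox2 +DOX ileum stood against 1.84 and 2.15 in rtTA +DOX ileum, and the log2 difference was -2.18 ± 0.55 (SE; 4.54-fold lower, limma adjusted p 0.048). The call held in 4 of 17 alternatives, with values from -2.97 to -1.40; without Sox2 +DOX replicate 1 it was -1.40 (limma adjusted p 0.25). This comparison shares arrays with those above. The median log2 difference of the members was -0.75, against -0.04 over all genes. Cldn15 and Cldn23 also had an unadjusted p under 0.05, as did 28.5% of all genes, with log2 differences of -1.40 and -1.14. These 2 values were -0.48 and -0.39 without Sox2 +DOX replicate 1. Without replicate 2 they were -2.33 and -1.89 and both passed, so that 3 members were called. Of the other members, Cldn3 differed by -0.75, Cldn7 by -0.81, Ocln by -0.40, Cldn2 by 0.09, Tjp1 by 0.40 and Cldn8 by 0.57 on the log2 scale.

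The controls, rtTA +DOX and Sox2 -DOX, differ in genotype, DOX and slide together, and 0% of all genes passed the test between them (limma; 1068 of 19049 genes and no member at an unadjusted p under 0.05). Cldn4 had the largest log2 difference of the members between them, 0.82 ± 0.55 (SE), followed by Cldn8 with 0.64. Cldn7 and Tjp1 both differed by -0.27, and Cldn2, Cldn3, Cldn15, Cldn23 and Ocln lay between -0.075 and 0.14.

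Across the 5 groups, the order of mean levels differed from gene to gene. For Cldn4 it was Sox2 +DOX (-0.19 ± 1.11), Sox2xOct4 +DOX (0.08 ± 0.24), Sox2 -DOX (1.17 ± 0.53), Oct4 +DOX (1.42 ± 0.66) and rtTA +DOX (2.00 ± 0.22; SD, n = 2 each). Neighbours in this order lay within their spread of each other except Sox2xOct4 +DOX and Sox2 -DOX, whose arrays did not overlap. For Cldn2 it was Sox2xOct4 +DOX (0.63 ± 1.51), Oct4 +DOX (1.61 ± 0.14), rtTA +DOX (3.0 ± 0.01), Sox2 -DOX (3.07 ± 0.23) and Sox2 +DOX (3.09 ± 0.74; SD, n = 2 each). The last 3 of these groups overlapped, and both groups with the Oct4 transgene lay below all arrays of these 3.

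For Cldn7 the order was Sox2 +DOX (6.88 ± 0.20), Sox2xOct4 +DOX (6.97 ± 0.57), rtTA +DOX (7.69 ± 0.32), Oct4 +DOX (7.92 ± 0.48) and Sox2 -DOX (7.96 ± 0.16; SD, n = 2 each). Both groups with the Sox2 transgene induced lay below all arrays of the other 3 groups. Cldn15 was lowest in Sox2 +DOX (3.32 ± 1.31) and highest in rtTA +DOX (4.73 ± 0.08; SD, n = 2 each).

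Members varied together to different degrees over the 10 arrays, which share groups and slides, so the correlations are descriptions. Cldn15 and Cldn23 had a Pearson r of 0.93, Cldn3 and Cldn7 0.88, and Cldn23 and Ocln 0.87. Cldn4 lay between 0.76 and 0.83 with Cldn3, Cldn7, Cldn15, Cldn23 and Ocln. Cldn2 stood apart from these, at -0.31 with Cldn3 and 0.17 with Cldn4, and had its highest value, 0.75, with Tjp1. Cldn8 was negative with every other member, down to -0.56 with Cldn7.

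Among all genes tested, the pattern most like that of Cldn4 over the 10 arrays was that of Casz1 (Pearson r 0.974), followed by Ier5 (0.971) and 5031425F14Rik (0.96). For Cldn7 it was that of Fuom (0.963), Taldo1 (0.96) and Cyp17a1 (0.959), and for Cldn15 that of BC062114 and Rasl12 (0.964 each) and Pdcd6ip (0.958). For Cldn2 it was AK087084 (0.959), Slc30a9 (0.951) and Dcaf7 (0.934). Cldn3 had Inppl1, C230098O21Rik and Tmem140 (0.971 to 0.965), Cldn23 had Mro, AK044380 and Wipf3 (0.975 to 0.963), and Cldn8 had Dmac2l, Ccpg1os and Kbtbd3 (0.956 to 0.912). Ocln had Syf2, Atp6v1d and AK042114 (0.933 to 0.909), and Tjp1 had 1700123O20Rik, Cggbp1 and Ufd1 (0.962 to 0.955).

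The stretch of 250 bases before the annotated gene start was read from RefSeq sequence (GRCm38.p6) for 8 of the 10 genes, since Sox2 and Oct4 bind DNA. Sox factors bind ACAAT and ACAAAG, and Oct4 binds the octamer ATGCAAAT; both strands were searched. A Sox match was found in 2 of 8 members, Cldn4 and Cldn15, and in 39.4% of 27025 stretches of the same length. The octamer was found in 0 of 8 members and in 1.6% of all stretches. Cdx factors of the intestine bind TTTATG, which 1 of 8 members, Cldn2, and 11.1% of all stretches held. A match is a description of letters and no binding site. Shown are the stretches of Cldn4 and Cldn15, which hold the Sox matches, and of Cldn2, which holds none; capitals mark the matches to the Sox letters on either strand.
Cldn4, chr5:134946935-134947184, minus strand: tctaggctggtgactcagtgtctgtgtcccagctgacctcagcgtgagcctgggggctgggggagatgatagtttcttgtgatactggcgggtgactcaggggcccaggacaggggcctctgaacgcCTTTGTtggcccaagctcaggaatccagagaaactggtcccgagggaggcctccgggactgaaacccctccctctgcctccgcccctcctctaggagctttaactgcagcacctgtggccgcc
Cldn15, chr5:136967619-136967868, plus strand: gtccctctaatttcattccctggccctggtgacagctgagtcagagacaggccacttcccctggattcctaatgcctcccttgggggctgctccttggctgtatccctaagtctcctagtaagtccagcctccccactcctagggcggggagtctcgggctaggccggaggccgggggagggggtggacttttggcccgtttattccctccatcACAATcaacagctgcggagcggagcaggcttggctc
Cldn2, chrX:139800558-139800807, plus strand: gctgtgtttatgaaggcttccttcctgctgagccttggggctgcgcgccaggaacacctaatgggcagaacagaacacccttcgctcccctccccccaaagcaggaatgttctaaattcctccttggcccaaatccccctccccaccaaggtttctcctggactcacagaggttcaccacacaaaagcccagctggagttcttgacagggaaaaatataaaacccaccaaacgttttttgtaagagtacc

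Other junction genes were read from lists of the pathway. Of 13 other tight junction membrane proteins, 2 rose and none fell in Sox2 +DOX against Sox2 -DOX, and 1 rose and 1 fell in Sox2xOct4 +DOX against rtTA +DOX. Over all genes, 7.82% and 6.34% were called in these 2 comparisons. Most of the 13 had a lower mean, 10 in the first comparison and 8 in the second. Their median log2 differences were -0.54 and -0.13, against -0.10 and 0.07 over all genes. Ildr1, also called angulin-2, recruits tricellulin to the corners where cells meet. Its levels were 2.34 and 2.24 in Sox2 +DOX ileum, against -0.40 and -0.43 in Sox2 -DOX ileum. Replicates were close and the groups far apart, and the log2 difference was 2.71 ± 0.26 (SE; 6.52-fold higher, limma adjusted p 0.0019). The call held in all 19 alternatives.

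Ildr1 also rose with both factors. Its levels were 0.49 and 0.76 in Sox2xOct4 +DOX ileum, against -0.95 and -1.24 in rtTA +DOX ileum, a log2 difference of 1.72 ± 0.26 (SE; 3.30-fold higher, limma adjusted p 0.012). The call was lost fitting only the groups compared and without either rtTA +DOX array (limma adjusted p up to 0.078). In Oct4 +DOX the levels were 0.20 and 0.16, a log2 difference of 1.28 from rtTA +DOX that missed the threshold (limma adjusted p 0.068).

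Jam2, a junctional adhesion molecule best known from endothelium, rose in Sox2 +DOX ileum, at -0.87 and -0.35, against -2.81 and -2.35 in Sox2 -DOX ileum. The log2 difference was 1.97 ± 0.36 (SE; limma adjusted p 0.018), and the call was lost in 6 of 19 alternatives, among them without any 1 of the 4 arrays compared (limma adjusted p up to 0.14). The endothelial marker list, well above background for 10 of 10 genes, summed to 3.80 and 5.04 in Sox2 +DOX ileum, against 1.92 and 8.94 in Sox2 -DOX ileum, in multiples of the 75th percentile. Igsf5, also called JAM4, fell in Sox2xOct4 +DOX ileum, at 1.08 and 1.27, against 2.67 and 2.49 in rtTA +DOX ileum (log2 difference -1.41 ± 0.26 SE, limma adjusted p 0.022). That call was lost in 4 of 18 alternatives.

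Of 24 plaque and polarity proteins, 1 rose and 2 fell in Sox2 +DOX against Sox2 -DOX, and 2 rose and 3 fell in Sox2xOct4 +DOX against rtTA +DOX, where 7.82% and 6.34% of all genes were called. Of the 24, 17 and 16 had a lower mean in these comparisons, with median log2 differences of -0.67 and -0.47. At an unadjusted p under 0.05, 12 and 8 of 24 differed, against 27.1% and 23.9% of all genes. Amot, angiomotin, which binds actin, polarity proteins and Yap, rose in both comparisons. It had levels of 2.76 and 2.77 in Sox2 +DOX ileum, against 1.04 and 1.1 in Sox2 -DOX ileum (log2 difference 1.70 ± 0.25 SE, limma adjusted p 0.0097). In the other comparison it had levels of 3.07 and 2.94 in Sox2xOct4 +DOX ileum, against 1.26 and 1.22 in rtTA +DOX ileum (log2 difference 1.76 ± 0.25 SE, limma adjusted p 0.010). Each Amot call was lost in 3 alternatives, leaving out single arrays or fitting only the groups compared, with limma adjusted p of up to 0.086.

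Mpp5, also called Pals1, the link between Crumbs and the polarity scaffold, fell in both. Its levels were -0.18 and 0.17 in Sox2 +DOX ileum, against 1.69 and 1.22 in Sox2 -DOX ileum (log2 difference -1.46 ± 0.32 SE, limma adjusted p 0.031). They were -0.29 and -0.42 in Sox2xOct4 +DOX ileum, against 1.56 and 1.05 in rtTA +DOX ileum (log2 difference -1.66 ± 0.32 SE, limma adjusted p 0.024). The calls were lost in 6 of 19 and 5 of 18 alternatives, with limma adjusted p of up to 0.20.

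Arhgef2, the microtubule-bound RhoA activator GEF-H1, fell in Sox2 +DOX ileum, by 1.51 on the log2 scale (limma adjusted p 0.034, lost in 8 of 19 alternatives). The polarity gene Pard6g rose in Sox2xOct4 +DOX ileum, at -0.52 and -0.58, against -2.64 and -2.10 in rtTA +DOX ileum (log2 difference 1.82 ± 0.33 SE, limma adjusted p 0.021, lost in 4 of 18 alternatives). Tjap1, a tight junction associated protein, fell there by 1.15 on the log2 scale (limma adjusted p 0.045, lost in 13 of 18). Prkcz, an atypical protein kinase C of the polarity complex, fell there as well, at 3.41 and 4.11 in Sox2xOct4 +DOX ileum, against 5.39 and 5.19 in rtTA +DOX ileum. Its log2 difference was -1.53 (limma adjusted p 0.048, lost in 11 of 18 alternatives). The 2 within-slide responses of these genes were compared as above, with the same limits. No gene of the list passed that test (limma, with 2 of 24 at an unadjusted p under 0.05).

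**Figure D3:**
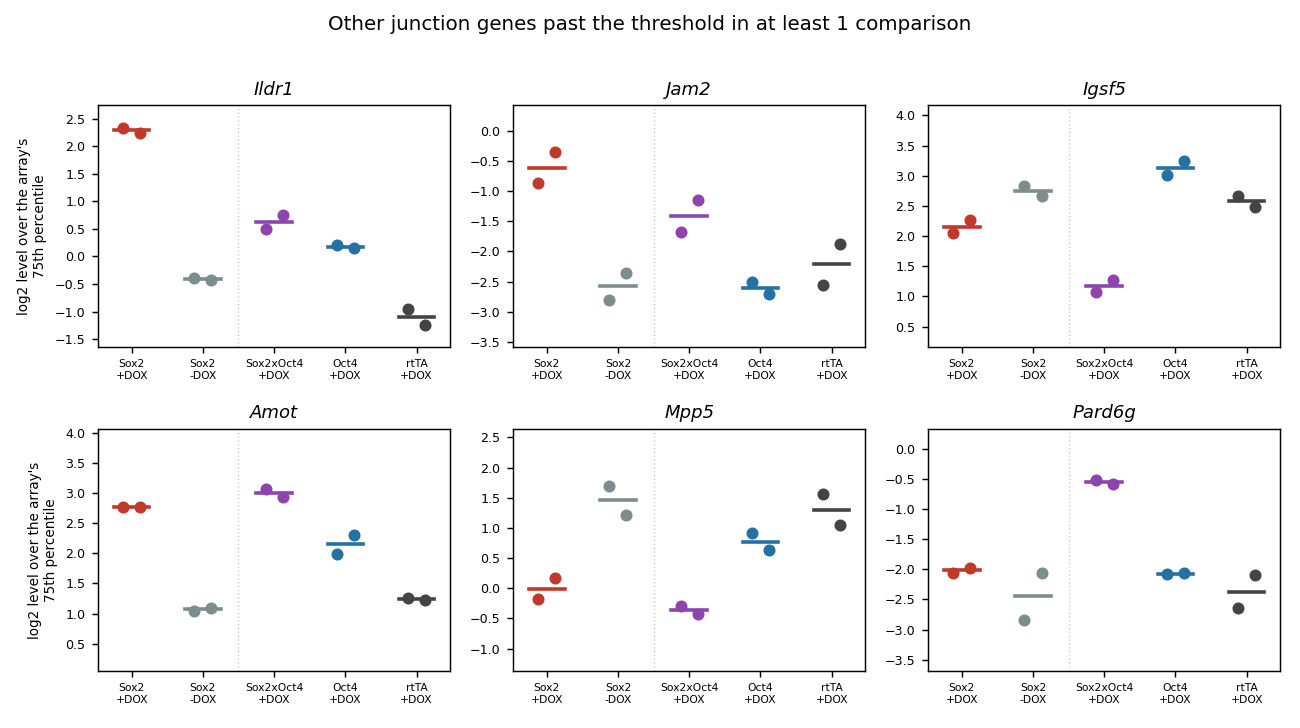
Level of 6 other junction genes on each of the 10 arrays (vertical axis: log2 of the signal over the array's 75th percentile; horizontal axis: group). Points are arrays, lines are means of 2 arrays and the dotted line parts slide 1 from the other slides. Ildr1 lies at 2.34 and 2.24 in Sox2 +DOX and below -0.3 in Sox2 -DOX and rtTA +DOX; Mpp5 lies at 0.17 or below in the 2 groups with Sox2 induced and at 0.63 or above elsewhere.

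Across slides, Sox2 +DOX against rtTA +DOX gave calls for Ildr1 (log2 difference 3.38 ± 0.26 SE, limma adjusted p 7.4e-04), Jam2 (1.61), Amot (1.53), Mpp5 (-1.31), Prkcz (-1.62) and Mpdz (-1.40). Mpdz encodes a scaffold with many PDZ domains. These calls were 2 of 13 other tight junction membrane proteins and 4 of 24 plaque and polarity proteins, against 8.38% of all genes. The Ildr1 call held in all 17 alternatives and the Amot call in 14, but those of Jam2, Mpp5, Prkcz and Mpdz in only 9, 7, 8 and 8. In Oct4 +DOX against rtTA +DOX, Amotl1 was called lower, 1 of 24 plaque and polarity proteins, against 1.01% of all genes. It was not well above background on either Oct4 +DOX array, so the bound is at least 1.14-fold lower (limma adjusted p 0.043, held in 5 of 17 alternatives).

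Of 16 other claudins, 13 were on the array and 7 were tested. Cldn13 was called lower in Sox2 +DOX against Sox2 -DOX (limma adjusted p 0.037, held in 8 of 19 alternatives). However, no Sox2 +DOX array and only 1 of 2 Sox2 -DOX arrays measured it well above background, so no fold is given. None of the 7 was called in Sox2xOct4 +DOX against rtTA +DOX (limma; 0 also at an unadjusted p under 0.05).

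Neither adherens junction genes nor genes of claudin partners passed the test in any of the 6 comparisons (limma). At an unadjusted p under 0.05, 3 of 10 and 4 of 8 differed in Sox2 +DOX against Sox2 -DOX, and 1 of 10 and 3 of 8 in Sox2xOct4 +DOX against rtTA +DOX. The shares over all genes were 27.1% and 23.9%. Median log2 differences of the 2 lists were -0.59 and -0.88 in the first comparison, against -0.71 for the members. In the second they were -0.44 and -0.67, against -0.72 for the members. Epcam, whose product stabilises claudin-7, had log2 differences of -1.06 ± 0.29 and -0.89 ± 0.29 in these comparisons (SE; limma adjusted p 0.059 and 0.11). Cdh1, E-cadherin, had a log2 difference of -0.67 ± 0.29 in Sox2 +DOX (SE; limma adjusted p 0.18). Wnk4, a kinase that phosphorylates claudins in the kidney, had values of 1.80 and 1.50 (limma adjusted p 0.059 and 0.11). Of 8 desmosome genes tested, 1 was called in Sox2xOct4 +DOX against rtTA +DOX, where 6.34% of all genes were. Pkp1, plakophilin-1, rose, at 4.30 and 4.05 in Sox2xOct4 +DOX ileum, against 2.17 and 2.53 in rtTA +DOX ileum. Its log2 difference was 1.83 ± 0.28 (SE, limma adjusted p 0.012, lost in 4 of 18 alternatives). At an unadjusted p under 0.05, 5 of 8 differed there, against 23.9% of all genes. The desmosome median log2 difference was -0.53, with 5 of 8 genes lower.

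In these whole-tissue samples, fewer cells of a type and less RNA per cell cannot be told apart. Genes of other cell types moved with the groups. The enterocyte list, well above background for 12 of 12 genes on every array, summed to 122.5 and 344.4 times the 75th percentile in Sox2 +DOX ileum, against 879.6 and 725.3 in Sox2 -DOX ileum. The lower of the Sox2 +DOX arrays, replicate 1 of the pair, was also the lower for all tested members except Cldn2. The sums were 272.4 and 743.0 in Sox2xOct4 +DOX ileum, 637.6 and 958.0 in Oct4 +DOX ileum, and 663.5 and 949.3 in rtTA +DOX ileum. The epithelial list, in which Epcam and Cdh1 are junction genes too, had no gene that passed the test in any of the 6 comparisons (limma). Its median log2 difference was -0.52 in Sox2 +DOX against Sox2 -DOX, with 9 of 10 genes lower, against -0.71 for the members and -0.10 over all genes. In Sox2xOct4 +DOX against rtTA +DOX it was -0.66, with 8 of 10 genes lower, against -0.72 for the members and 0.07 over all genes. Against rtTA +DOX, it was -0.04 in Sox2 +DOX, where the members had -0.75. The enterocyte list had a median log2 difference of -3.255 in that comparison, with 12 of 12 genes lower. Its median was -2.74 in Sox2 +DOX against Sox2 -DOX, with 12 of 12 genes lower. In Sox2xOct4 +DOX against rtTA +DOX the enterocyte median was -1.94, with 11 of 12 genes lower. The part of enterocyte or epithelial cell number in the claudin differences was not tested.

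The colon list, to which Cldn8 does not belong, had 6 of 8 genes well above background on 9 of the 10 arrays. It summed to 22.5 and 11.5 in Sox2 +DOX ileum, against 1.62 and 1.75 in Sox2 -DOX ileum. With both factors it summed to 7.86 and 13.4, against 0.69 and 1.84 in rtTA +DOX ileum. Slc37a2 of the list had mean log2 levels of 2.96 against -4.69 in the first comparison and 2.77 against -4.62 in the second. Of the list's 6 tested genes, 6 and 5 had a higher mean in these comparisons. Calls were 2 and 1 of 6, against 7.82% and 6.34% of all genes. The stomach list, with 2 to 7 of 12 genes well above background, summed to 9.44 and 2.31 in Sox2 +DOX ileum, against 0.17 and 0.17 in Sox2 -DOX ileum. With both factors it summed to 12.1 and 26.8, against 0.09 and 0.13 in rtTA +DOX ileum. That sum followed mainly Lipf, with a mean log2 level of 4.12 with both factors, where Anxa10 had -0.94. Gkn1, Cblif, Pgc and Sox2 of the list were not well above background on any array. The same held for the gastric claudin Cldn18, read by a probe with 40 of its 60 bases placed on the genome. The squamous list summed to 11.8 and 10.1 in Sox2 +DOX ileum, against 2.32 and 2.23 in Sox2 -DOX ileum. With both factors it summed to 3.13 and 2.25, against 2.40 and 4.76 in rtTA +DOX ileum. Such sums are weighted to the brightest genes. By gene, 6 of 9 tested squamous genes were higher and 3 lower there, with a median log2 difference of 0.74. Of the 9, 2 were called higher, against 6.34% of all genes called: Trp63 and Krt6a (limma adjusted p 0.0012 and 0.0076). Neither was well above background on an rtTA +DOX array, so the bounds are at least 16.4-fold and 51.1-fold higher. The T cell list, 10 of 10 genes well above background, summed to 5.74 and 7.47 in Sox2 +DOX ileum, against 30.3 and 24 in Sox2 -DOX ileum. Its sums were 8.16 and 4.04 in Sox2xOct4 +DOX, 4.41 and 3.99 in Oct4 +DOX, and 18.1 and 8.17 in rtTA +DOX ileum. Their part in the results above was not tested.

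**Figure D4:**
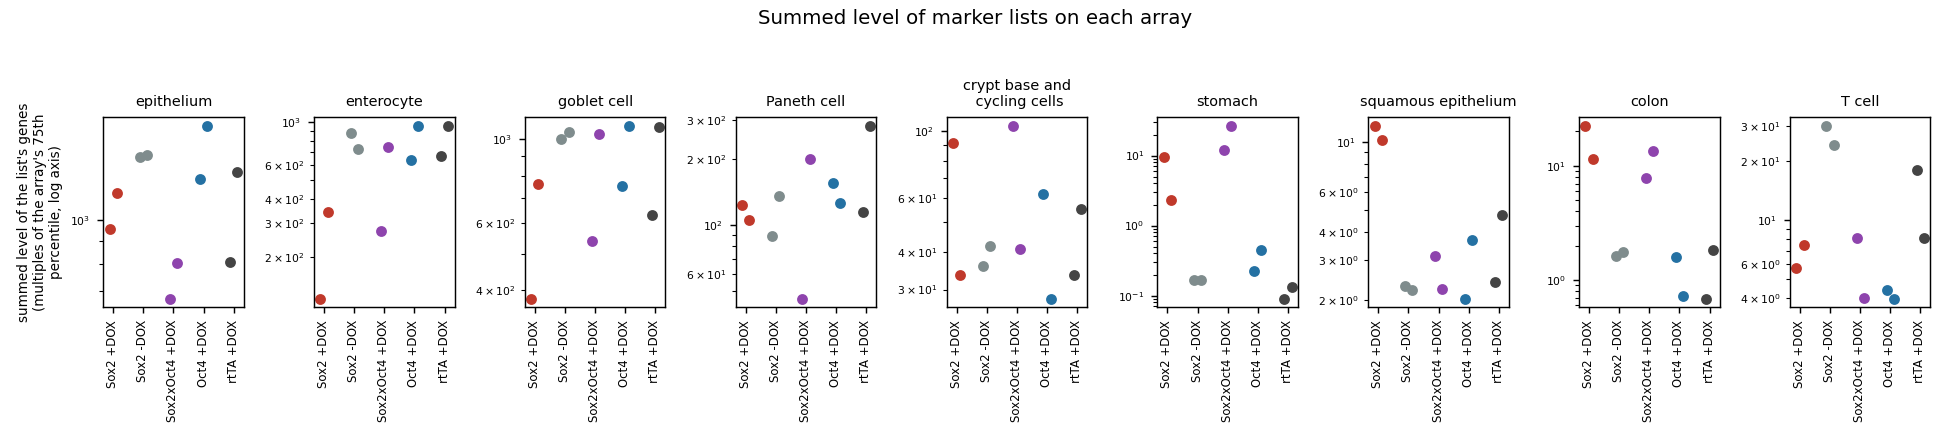
Summed level of 9 marker gene lists on each array (vertical axes: multiples of the array's 75th percentile, log scale; horizontal axis: group; points are arrays, 2 per group). The enterocyte sum is 122.5 and 344.4 in Sox2 +DOX and 879.6 and 725.3 in Sox2 -DOX, and the colon and stomach sums are higher in the 2 groups with Sox2 induced than in the other 3.

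The labels were checked on each array. Pou5f1, the gene of Oct4, was well above background at 2.64 and 0.92 in Sox2xOct4 +DOX and at 6.20 and 4.79 in Oct4 +DOX, and was below that flag's limit on the remaining 6 arrays. The Sox2 probe gave no signal well above background in any group, so it checks no Sox2 label. The intestinal factor Cdx2 and the ileal bile acid binding gene Fabp6 were well above background on all 10 arrays, as were all 10 epithelial markers. The 75th percentile of the signal ran from 544.2 to 1612.8 over the arrays, and the share of probes well above background from 63.5% to 70.5%.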

How the data were processed

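The members and lists were chosen with earlier results of these data known. The deposited files hold processed intensity per spot from Agilent Feature Extraction (version 9.1 in the submitters' processing notes; 9.5.3.1, 10.7.1.1 and 10.7.3.1 per the file headers, 1 version for each slide). Slide 3 used the pixel median in place of the mean, per the file headers. Control spots and outlier flags were left out, and spots of 1 probe were averaged. The log2 of the processed intensity in the deposited files was taken relative to the array's 75th percentile. A gene was read at its probe with the highest mean, and 80.2% of probes were named through RefSeq.

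The comparisons were fitted with limma 3.58.1 (R 4.3.3) over all 10 arrays (5 residual and 3.3 prior degrees of freedom, median SE 0.393), adjusted by Benjamini-Hochberg over 19049 genes, with calls at 0.05. The authors' table of normalized intensity for the Sox2 arrays, an alternative here, is the deposited processed intensity divided by 1 number for each array, with values below 5 raised to 5; how that number was chosen is not stated in the sources used here. Genes to be named were the members, up to 4 genes of each list with the smallest p in a comparison, and the 3 most alike genes for each member; Fabp6, and Prkcz with both factors, were added after their values were seen. Alternatives left out each array in turn, kept only the groups compared, added a replicate or slide block, used the authors' table, kept dim probes, or changed the scaling (normexp with an offset of 50, then quantile; or quantile by itself). Replicate numbers did not pair the arrays. With 2 arrays a group, their number limits the precision.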

Additional observations from a re-analysis of the deposited data

How the results depend on the processing

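With 2 arrays a group, SEs on the members were 0.28 to 0.64 log2 units between groups and 0.40 to 0.90 for the difference of responses. A group left with 1 array takes its spread from the other groups. All values follow from limma fits; the causes of the shifts were not tested, except that fitting only the groups compared uses fewer arrays. Of the alternatives, all probes and quantile normalization moved no count of calls by over 1.5 times. The slide block could not change a fit, because each group lies on 1 slide. Its agreement is therefore no check, and the counts of alternatives for within-slide comparisons include it. In Sox2 +DOX against Sox2 -DOX, 38.8% of called genes were higher, against 49.3% with normexp correction, which here always includes quantile normalization, and 46.5% with quantile normalization by itself. The median log2 difference of all genes was -0.10, against 0.005 with either. In Sox2 +DOX against rtTA +DOX 38.6% of called genes were higher, against 49.6% with normexp correction and 45.2% with quantile normalization. For the difference of responses 12.5% were higher, against 42.9% with normexp correction and 34.9% with quantile normalization.

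In Sox2 +DOX against Sox2 -DOX, the calls among members were 0, and 1 with normexp correction and quantile normalization (Cldn7). The calls among all genes were 1489, against 932 with no filter on dim probes, 612 with only the groups compared and 690 with the authors' normalized table. Leaving out arrays in turn gave 0 to 3 members and 161 to 1744 genes, a Cldn2 difference of -0.50 to 0.54, an Ocln difference of -0.59 to 0.014 and a Tjp1 difference of -0.031 to 0.29.

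For Sox2xOct4 +DOX against rtTA +DOX, 1 member was called with normexp correction and quantile normalization (Cldn7) and 1 with the replicate block (Cldn2, limma adjusted p 0.041), against 0 in the fit without them. The calls among all genes were 1208, against 776 with no filter on dim probes and 473 with only the groups compared. Leaving out arrays gave 0 to 1 members, 105 to 1249 genes and a Cldn3 difference of -0.64 to 0.057.

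For Oct4 +DOX against rtTA +DOX, 111 genes were called with normexp correction, against 192. Leaving out arrays gave 35 to 215 genes and differences of -0.32 to 0.31 for Cldn3, -0.11 to 0.57 for Cldn7, -0.90 to 0.34 for Cldn8 and -0.27 to 0.16 for Tjp1. Cldn7 turned to -0.29 with normexp correction and to -0.24 with quantile normalization.

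In Sox2 +DOX against rtTA +DOX, the call of Cldn4 was lost, leaving 0 members, with no filter on dim probes, with only the groups compared and with the replicate block; with normexp correction Cldn7 was called in its place. Genes called were 1045 with no filter and 934 with only the groups compared, against 1596. Leaving out arrays gave 0 to 3 members, 195 to 2179 genes and a Cldn2 difference of -0.43 to 0.61. Between rtTA +DOX and Sox2 -DOX, 1 gene was called with the floor, 13 with only these groups and 2 with the replicate block, against 0. Cldn7 turned to 0.095 with normexp correction and 0.092 with quantile normalization there. Leaving out arrays gave 0 to 11 genes and differences of -0.23 to 0.084 for Cldn2, -0.12 to 0.21 for Cldn3, -0.076 to 0.35 for Cldn23 and -0.19 to 0.42 for Ocln.

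For the difference of responses, 7 genes were called with normexp correction, against 32, and 5 to 52 leaving out arrays. Cldn23 turned to -0.074 and Ocln to -0.043 with normexp correction, and Cldn7 to 0.058 and Cldn23 to -0.051 with quantile normalization. Leaving out arrays gave -0.23 to 1.34 for Cldn4, -0.77 to 0.037 for Cldn7, -0.56 to 0.77 for Cldn8, -1.37 to 0.48 for Cldn15, -0.72 to 0.78 for Cldn23 and -0.19 to 0.41 for Ocln.

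Replicate numbers did not pair the arrays: deviations of same-numbered arrays correlated at -0.13 to 0.28. Beyond the counts above, the replicate block changed no call of a member; it ended the Tjap1 and Prkcz calls in Sox2xOct4 +DOX against rtTA +DOX (limma adjusted p 0.056 and 0.054).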
